A study of Homo sapiens with 30 samples.

Results

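The 10 genes described here were among those whose messenger RNA was most strongly lowered by androgen in LNCaP prostate cancer cells: OPRK1, DAB1, AMIGO2, VWA2, CAMK2N1, MYLK, PLD1, BCHE, AOC1 and DIPK2B. They were taken by Ensembl ID from a table of 37843 genes, of which 18403 passed the filter on low counts, and all 10 were among these. They were chosen by their counts, for large falls with dose in the very libraries described here, so their levels in these libraries are given as a description, without a test. In the group treated with 10 nM of androgen their mean levels were 1.99% (DAB1) to 15.9% (BCHE) of the vehicle mean. The genes differed among themselves in dose sensitivity. PLD1, AOC1 and MYLK were already below 50% of the vehicle mean at the lowest dose, whereas BCHE was still above 50% at 0.1 nM.

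LNCaP is a human prostate cancer line, grown from a lymph node metastasis, that responds to androgen. Cells were plated at 130000 per well, held for 48 h in medium whose 8% serum had been stripped of hormones with charcoal and dextran, and then given vehicle or the synthetic androgen R1881 (0.03, 0.06, 0.1 or 10 nM) for 24 h. All 5 groups shared the line and the hormone-depleted serum, so the vehicle group is an androgen-deprived state and not an untouched culture. Every group had 3 libraries, which carry the replicate numbers 2, 3 and 4. Whether they were separate cultures is not stated in the labels, so p-values measure the spread between these libraries, which may be technical.

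Androgens act on transcription through androgen response elements in DNA, which are paired copies of a short hexamer. In luminal prostate cells they raise genes of secretion and lipid metabolism such as KLK3, which encodes prostate-specific antigen. They also lower a set of genes, in part through corepressors such as the lysine demethylase KDM1A, and OPRK1 is a known example in prostate cancer lines.

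The 15 LNCaP libraries held 30666460 to 61199483 counts each. The markers of luminal prostate cells were present throughout (13 of 13 at a mean of at least 1 CPM, counts scaled to a common library size). Their summed level was 15600 to 15960 CPM at 10 nM and 5908 to 6072 CPM in vehicle. Of markers of other cells, among those with a row in the table, 2 of 6 basal genes reached 1 CPM (DST and ITGB4), 2 of 9 neuroendocrine genes (SYP and ENO2), 3 of 7 fibroblast and muscle genes and 1 of 7 leukocyte and endothelial genes (VWF). Over all 15 libraries the basal marker TP63 had 2 counts, the neuroendocrine markers CHGA and INSM1 had 2 and 1, and the leukocyte marker PTPRC had 3. The summed neuroendocrine level was 20.4 to 23.3 CPM at 10 nM against 53.1 to 58.5 CPM in vehicle, the basal level 24.2 to 27.6 against 39.1 to 40.5 CPM, the fibroblast and muscle level 25.5 to 28.7 against 33.1 to 43.8 CPM, and the leukocyte and endothelial level 5.18 to 7.85 against 16.7 to 20.1 CPM. These sums moved in the same direction as the 10 genes, and their part in the results was not tested. In bulk RNA, fewer cells of a type and less RNA per cell cannot be told apart. The 5 libraries numbered 3 stood apart, with 9.31% to 10.7% of counts from mitochondrially encoded genes, against 6.14% to 7.69% in the other 10.

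Promoters were read because the genes move together with the dose of a steroid that acts through elements in DNA. RefSeq (GRCh38.p14) gave 14 promoter windows of 300 bases, 250 before and 50 after the start, for 7 of the genes; OPRK1, CAMK2N1 and DIPK2B had no entry in this set. The following windows are all on the minus strand and written 5′ to 3′. PLD1 (chr3:171810434-171810733) and DAB1 (chr1:57423063-57423362) are the 2 genes with a window that holds the hexamer of the androgen response element. DAB1 had several windows, and its others lacked the hexamer. The DAB1 window shown lies inside the gene, whose annotated 5′ end is at 58546734. Also shown are BCHE, the least responsive gene (chr3:165837374-165837673), and AMIGO2 (chr12:47079902-47080201), whose dose pattern was nearest to that of OPRK1. Capitals mark the hexamer AGAACA, or TGTTCT where it is on the other strand, in PLD1 and DAB1. In BCHE they mark TATAAA, the TATA box sequence, read as TTTATA because it is on the other strand. This match lies near the middle of the window, and whether it acts as a TATA box was not tested. The AMIGO2 window held none of the motifs searched.
PLD1: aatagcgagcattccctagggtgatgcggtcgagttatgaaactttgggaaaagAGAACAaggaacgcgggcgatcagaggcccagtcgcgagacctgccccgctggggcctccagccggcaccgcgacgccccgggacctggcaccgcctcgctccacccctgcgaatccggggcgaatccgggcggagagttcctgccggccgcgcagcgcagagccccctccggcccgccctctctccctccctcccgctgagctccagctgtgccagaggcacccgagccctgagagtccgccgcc
DAB1: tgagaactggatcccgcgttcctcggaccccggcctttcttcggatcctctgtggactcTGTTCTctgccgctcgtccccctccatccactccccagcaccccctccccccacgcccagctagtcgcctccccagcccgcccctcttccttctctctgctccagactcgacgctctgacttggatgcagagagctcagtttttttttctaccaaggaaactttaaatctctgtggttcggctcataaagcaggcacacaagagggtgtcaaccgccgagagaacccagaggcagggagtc
BCHE: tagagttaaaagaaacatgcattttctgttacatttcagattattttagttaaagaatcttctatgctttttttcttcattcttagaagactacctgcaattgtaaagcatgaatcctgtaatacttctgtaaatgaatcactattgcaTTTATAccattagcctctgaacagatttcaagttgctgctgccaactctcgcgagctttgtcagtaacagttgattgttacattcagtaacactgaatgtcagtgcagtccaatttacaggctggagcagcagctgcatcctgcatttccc
AMIGO2: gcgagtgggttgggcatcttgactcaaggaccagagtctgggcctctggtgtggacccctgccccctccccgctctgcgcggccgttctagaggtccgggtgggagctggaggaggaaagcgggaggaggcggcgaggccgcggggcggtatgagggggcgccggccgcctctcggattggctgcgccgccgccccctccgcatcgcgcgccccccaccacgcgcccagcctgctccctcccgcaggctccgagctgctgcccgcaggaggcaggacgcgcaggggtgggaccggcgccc

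The hexamer AGAACA, on either strand, was present in 2 of the 14 windows, at position −196 from the start of PLD1 and −191 from that start of DAB1, and in 14.8% of all 35116 RefSeq promoter windows of the same length. The full palindrome, AGAACA followed by TGTTCT with 3 bases between them, was in 0 of the 14 windows and in 1 of all 35116. The forkhead motif TGTTTAC was in 1 window, another start of DAB1 (3.42% of all windows). TATAAA, on either strand and at any position, was in windows of 3 genes, MYLK, BCHE and VWA2 (11.5% of all windows). The only MYLK window, chr3:123620499-123620798 on the minus strand, lies far inside the gene, whose annotated 5′ end is at 123884331. No window at that end of MYLK was read. None of these motifs overlaps another in the windows shown. The 4 windows shown differ widely in base composition, with 69.7% G and C in PLD1, 59.0% in DAB1, 36.7% in BCHE and 75.3% in AMIGO2, against a median of 58.7% over all windows.

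All 10 genes are annotated as protein coding (GENCODE 29, GRCh38). OPRK1 (ENSG00000082556) lies at chr8:53225716-53251697 on the minus strand, DAB1 (ENSG00000173406) at chr1:56994778-58546734, minus, and AMIGO2 (ENSG00000139211) at chr12:47075707-47079951, minus. VWA2 (ENSG00000165816) lies at chr10:114239330-114291513, plus, CAMK2N1 (ENSG00000162545) at chr1:20482391-20486220, minus, and MYLK (ENSG00000065534) at chr3:123610049-123884331, minus. PLD1 (ENSG00000075651) lies at chr3:171600405-171810950, minus, and BCHE (ENSG00000114200) at chr3:165772904-165837472, minus. AOC1 (ENSG00000002726) lies at chr7:150824627-150861504, plus, and DIPK2B (ENSG00000147113) at chrX:45148374-45200901, minus. The 10 genes thus lie on 7 chromosomes.

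Across the dose series the 10 genes were lower at each step of dose than at the step before. In each of the 3 replicate numbers, the level of each gene was lower at 0.03 nM than in vehicle, and lower again at 0.06, 0.1 and 10 nM in turn (10 of 10 genes, 30 of 30 series), a pattern that 3.15% of all tested genes had. The median level of the 10 genes was 54.8% of the vehicle mean at 0.03 nM, 27.8% at 0.06 nM, 17.7% at 0.1 nM and 3.34% at 10 nM. On the log2 scale the medians were −0.87, −1.85, −2.50 and −4.88, where the medians of all tested genes lay between −0.03 and 0.00. Libraries of the lower dose and of the higher dose did not overlap for 9 of 10 genes at 0.03 nM against vehicle (11.1% of all tested genes were lower without overlap), for 9 of 10 at 0.06 against 0.03 nM (10.7%), for 8 of 10 at 0.1 against 0.06 nM (7.09%) and for all 10 at 10 against 0.1 nM (24.4%). BCHE overlapped at each of the first 3 of these steps, and PLD1 at 0.1 against 0.06 nM.

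**Figure D1:**
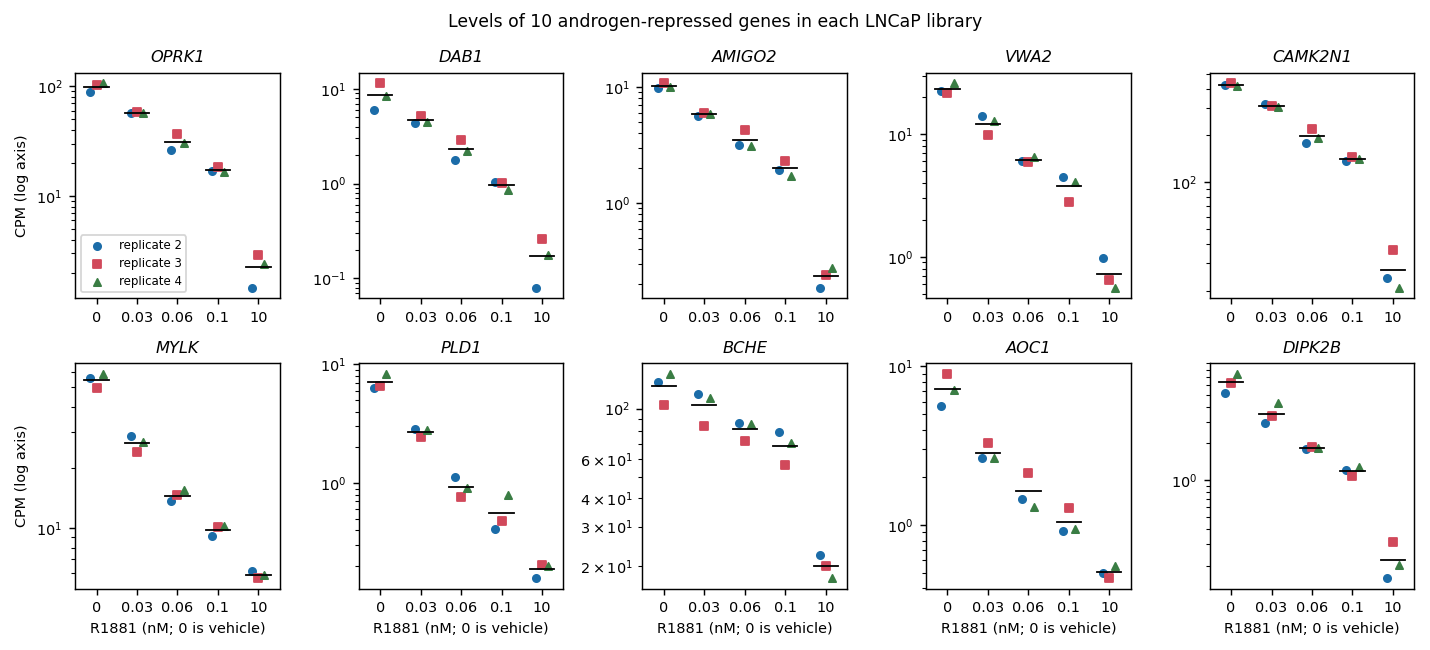
Level of each of the 10 genes in each of the 15 libraries (CPM, log axis) by R1881 dose, with a symbol for each replicate number and a bar at the group mean. All genes step down with dose, and the lowest points are those of DAB1 at 10 nM, at 0.0791 to 0.259 CPM.

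OPRK1 encodes the kappa opioid receptor, a Gi/o-coupled receptor for dynorphin peptides. OPRK1 had 89.5, 102 and 106 CPM in vehicle, 57.2, 58.6 and 57.2 CPM at 0.03 nM, 26.2, 36.8 and 30.4 CPM at 0.06 nM, 16.7, 18.4 and 16.7 CPM at 0.1 nM and 1.45, 2.89 and 2.40 CPM at 10 nM (libraries 2, 3 and 4). No library of any dose reached the range of the dose before it, and the groups at 0.03 and 0.1 nM were tight, with SDs of 0.830 and 0.977 CPM (n = 3). The mean was 58.1% ± 0.836 of the vehicle mean at 0.03 nM, 17.4% ± 0.984 at 0.1 nM and 2.26% ± 0.736 at 10 nM (SD, n = 3), which is 44.2-fold below vehicle. The 306 counts summed over the 10 nM libraries have an exact Poisson 95% interval of 273 to 342, which covers counting error only. The fitted log2 fold change was −0.78 ± 0.11, −1.68 ± 0.12, −2.52 ± 0.12 and −5.43 ± 0.15 (SE) at the 4 doses, the last the 20th lowest of 18403.

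Other genes of the opioid system changed in both directions. Over all tested genes, 28.3% were called lower and 29.3% higher at 10 nM, which is the background for the counts in this list and the lists below. Of 16 listed genes 9 were tested, and at 10 nM 4 were lower (OPRL1, GNAZ, ARRB1 and ARRB2) and 3 higher (GNAI1, GNAI3 and GRK2), with a median log2 change of −0.18 beside −0.01 for all tested genes. Scaled by library totals alone, without the TMM factors that adjust them for differences in RNA composition, 5 were lower and 2 higher (the call of GNAI1 was lost), with a median of −0.39. GNAZ, a Gi-family alpha subunit, had 14.7 ± 0.997 CPM at 10 nM and 31.1 ± 1.30 CPM in vehicle (SD, n = 3; log2 −1.08 ± 0.066, SE; edgeR adjusted p = 1.33e-10). GRK2, the kinase that phosphorylates active receptors so that arrestin can bind, had 265 ± 6.08 CPM at 10 nM and 141 ± 3.08 CPM in vehicle (log2 0.91 ± 0.051; edgeR adjusted p = 4.65e-11). GNAI3, another Gi alpha subunit, was higher by 0.64 on the log2 scale. PDYN, the dynorphin precursor, had 8 counts over all 15 libraries and was not tested, and the delta opioid receptor gene OPRD1 had 24.

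DAB1 encodes the adaptor that is phosphorylated when reelin binds its receptors. DAB1 had 6.00, 11.4 and 8.51 CPM in vehicle, 4.39, 5.12 and 4.48 CPM at 0.03 nM, 1.79, 2.90 and 2.20 CPM at 0.06 nM, 1.04, 1.02 and 0.861 CPM at 0.1 nM and 0.0791, 0.259 and 0.177 CPM at 10 nM. The vehicle libraries were the most scattered of the 10 genes, with library 3 highest, and library 3 was also highest at 0.03, 0.06 and 10 nM. At 10 nM the mean was 1.99% ± 1.04 of vehicle, the smallest residual share of the 10 genes, on 24 counts over the 3 libraries (exact Poisson 95% interval 15.4 to 35.7). The log2 fold change was −0.89 ± 0.20, −1.93 ± 0.21, −3.14 ± 0.24 and −5.55 ± 0.31 (SE), and the last was −6.05 without 10 nM replicate 3. Its exons overlap those of OMA1, a mitochondrial protease gene on the same strand, which had 4505 counts at 10 nM and 3329 in vehicle.

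Of 16 listed reelin signalling genes 15 were tested, and at 10 nM 6 were lower and 7 higher, with a median of 0.07. With library totals in place of TMM factors these were 7 lower and 3 higher, with a median of −0.14. VLDLR, a reelin receptor, had 67.9 CPM at 10 nM and 15.9 CPM in vehicle (log2 2.09 ± 0.095; edgeR adjusted p = 2.21e-12). LRP8, the other reelin receptor, was higher by 0.36, 0.63 and 0.76 on the log2 scale at 0.03, 0.06 and 0.1 nM (edgeR adjusted p = 0.00106, 6.09e-07 and 2.67e-08). At 10 nM LRP8 was higher by 0.21 ± 0.062 (0.00789), a call lost with library totals. APP turned with dose, with log2 changes of −0.31, −0.31 and −0.25 at 0.03, 0.06 and 0.1 nM (edgeR adjusted p = 0.00357, 0.000857 and 0.00279) and 0.56 at 10 nM (3.76e-07). PIK3R1, the regulatory subunit of phosphatidylinositol 3-kinase, fell by 0.49 at 10 nM. RELN itself had 9.30 ± 4.94 CPM at 10 nM and 21.1 ± 12.3 CPM in vehicle (edgeR adjusted p = 0.0497), a call that was lost with RLE size factors and with DESeq2.

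AMIGO2 encodes a single-pass membrane protein with leucine-rich repeats that takes part in cell adhesion. AMIGO2 had 9.87, 10.7 and 10.0 CPM in vehicle, 5.61, 5.98 and 5.82 CPM at 0.03 nM, 3.18, 4.25 and 3.09 CPM at 0.06 nM, 1.93, 2.31 and 1.72 CPM at 0.1 nM and 0.185, 0.241 and 0.278 CPM at 10 nM. The 5 groups were fully separated, and the shares of vehicle (56.8%, 34.3%, 19.5% and 2.29% ± 0.458, the last SD over 3) lay within 3 percentage points of those of OPRK1 at every dose. The log2 fold change at 10 nM was −5.42 ± 0.18, on 31 counts (exact Poisson 95% interval 21.1 to 44). The exons of PCED1B overlap those of AMIGO2 on the opposite strand, and PCED1B had 17 counts at 10 nM and 575 in vehicle. The strand setting of the counting is not given, so reads of the pair cannot be told apart.

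In the list of other leucine-rich repeat adhesion genes 8 of 16 were tested, and at 10 nM 5 were lower (AMIGO1, LRIG2, LRIG3, LRRN1 and LRRN2) and 2 higher (LRIG1 and SLITRK6), with a median of −0.80. AMIGO1, the closest relative tested, had 9.48 ± 0.795 CPM at 10 nM and 16.2 ± 1.08 CPM in vehicle (log2 −0.77 ± 0.078; edgeR adjusted p = 1.51e-07). LRRN1 had 13.3 CPM at 10 nM and 224 CPM in vehicle (log2 −4.06 ± 0.17; edgeR adjusted p = 6.37e-13). LRIG1, a negative regulator of ERBB receptors, had 465 CPM at 10 nM and 88.3 CPM in vehicle (log2 2.40 ± 0.14), and LRIG3 fell by 1.63 ± 0.10. The list thus held large changes in both directions.

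VWA2 encodes an extracellular matrix protein with von Willebrand factor A domains that is found in basement membranes. VWA2 had 22.5, 21.8 and 25.9 CPM in vehicle, 14.1, 9.81 and 12.7 CPM at 0.03 nM, 6.04, 5.92 and 6.55 CPM at 0.06 nM, 4.43, 2.81 and 4.10 CPM at 0.1 nM and 0.975, 0.648 and 0.555 CPM at 10 nM. The groups did not overlap, and library 3 was the lowest at vehicle, 0.03, 0.06 and 0.1 nM. The mean at 10 nM was 3.10% ± 0.944 of vehicle (32.2-fold below; log2 −5.02 ± 0.20).

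Of 16 other matrix genes 10 were tested, in a list not limited to proteins with von Willebrand factor A domains. At 10 nM 5 were lower (MATN2, VWF, COL6A1, FRAS1 and FREM1) and 1 higher (COL12A1), with a median of −0.19. With library totals 7 were lower, COL6A2 and VWA1 being added, and the median was −0.40; with DESeq2 the call of FREM1 was lost. MATN2, matrilin-2, was the furthest down, at 0.369 CPM at 10 nM and 8.21 CPM in vehicle (log2 −4.39 ± 0.35; edgeR adjusted p = 6.77e-09). FRAS1, a basement membrane protein, fell by 2.36 ± 0.21, and COL12A1 had 19.7 CPM at 10 nM and 3.43 CPM in vehicle (log2 2.52 ± 0.17).

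CAMK2N1 encodes a small protein that inhibits calcium/calmodulin-dependent protein kinase II (CaMKII), and it was the most abundant of the 10 genes. CAMK2N1 had 422, 433 and 414 CPM in vehicle, 317, 311 and 304 CPM at 0.03 nM, 179, 221 and 192 CPM at 0.06 nM, 136, 145 and 141 CPM at 0.1 nM and 24.3, 36.6 and 20.8 CPM at 10 nM. The groups were well apart, and library 3 was highest in vehicle and at 0.06, 0.1 and 10 nM. The share of vehicle was 73.5% ± 1.52 at 0.03 nM, 46.6% ± 5.10 at 0.06 nM, 33.2% ± 0.984 at 0.1 nM and 6.44% ± 1.96 at 10 nM (SD, n = 3). The log2 fold change was −0.45 ± 0.12 at 0.03 nM and −3.95 ± 0.14 at 10 nM.

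Among the CaM kinase genes 13 of 16 were tested, and at 10 nM 6 were lower and 6 higher, with a median of 0.02; with library totals 7 were lower and 3 higher, with a median of −0.19. The tested targets of the inhibitor, CAMK2B, CAMK2D and CAMK2G, were among the lower genes at 10 nM only. At 0.03, 0.06 and 0.1 nM none of them was called, with log2 changes of 0.09, 0.09 and −0.07 for CAMK2B, 0.15, 0.24 and 0.12 for CAMK2D and −0.06, −0.03 and −0.12 for CAMK2G. The values that follow are those at 10 nM. CAMK2B had 22.5 ± 4.95 CPM at 10 nM and 46.4 ± 2.85 CPM in vehicle (log2 −1.04 ± 0.11; edgeR adjusted p = 3.12e-07). CAMK2D had 6.45 ± 1.31 CPM at 10 nM and 15.9 ± 2.26 CPM in vehicle (log2 −1.29 ± 0.15; edgeR adjusted p = 6.91e-07). CAMK2G was lower by only 0.22 ± 0.048 on that scale (edgeR adjusted p = 0.000747). CAMK2N2, the paralogue of the inhibitor, moved the other way, at 10.9 CPM at 10 nM and 6.66 CPM in vehicle (log2 0.71 ± 0.13; edgeR adjusted p = 0.000108). CAMKK2, a kinase upstream of the CaM kinases and a known androgen-induced gene, had 377 CPM at 10 nM and 106 CPM in vehicle (log2 1.83 ± 0.077; edgeR adjusted p = 8.59e-13). CAMK1D had 1.25 CPM at 10 nM and 10.3 CPM in vehicle (log2 −3.01 ± 0.23), and CAMK1 rose by 0.60.

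MYLK encodes myosin light chain kinase, which starts actomyosin contraction in smooth muscle and in other cells. MYLK had 55.6, 49.98 and 58.6 CPM in vehicle, 28.6, 23.8 and 26.7 CPM at 0.03 nM, 13.6, 14.6 and 15.4 CPM at 0.06 nM, 9.16, 10.1 and 10.3 CPM at 0.1 nM and 6.14, 5.64 and 5.83 CPM at 10 nM. Its replicates were close at the higher doses, with no overlap between neighbouring doses. Its share of vehicle was 48.2% ± 4.39 at 0.03 nM but still 10.7% ± 0.460 at 10 nM, so it was low already at the lowest dose and high in residue. The log2 fold change was −1.05 ± 0.08, −1.91 ± 0.08, −2.47 ± 0.08 and −3.22 ± 0.09 (SE). MYLK-AS1 overlaps its exons on the opposite strand, with 379 counts at 10 nM and 472 in vehicle, while MYLK had 769 and 7164.

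Of 16 genes of myosin light chain phosphorylation 14 were tested, and at 10 nM 4 were lower (MYLK4, MYH10, MYH14 and ROCK1) and 6 higher, with a median of 0.20; with library totals 5 were lower and 4 higher, with a median of −0.01. MYL12A, a regulatory light chain, had 173 CPM at 10 nM and 87.8 CPM in vehicle (log2 0.98 ± 0.054). PPP1CB, the catalytic subunit of myosin phosphatase, had 520 CPM at 10 nM and 181 CPM in vehicle (log2 1.52 ± 0.098). MYH10, a non-muscle myosin heavy chain, had 284 CPM at 10 nM and 513 CPM in vehicle (log2 −0.86 ± 0.052). The other kinase of the family that was tested, MYLK4, had 0.338 ± 0.0339 CPM at 10 nM and 0.938 ± 0.226 CPM in vehicle (log2 −1.45 ± 0.29; edgeR adjusted p = 0.000337).

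PLD1 encodes phospholipase D1, which cleaves phosphatidylcholine to phosphatidic acid and choline. PLD1 had 6.31, 6.59 and 8.33 CPM in vehicle, 2.83, 2.46 and 2.77 CPM at 0.03 nM, 1.13, 0.757 and 0.917 CPM at 0.06 nM, 0.407, 0.479 and 0.801 CPM at 0.1 nM and 0.158, 0.204 and 0.202 CPM at 10 nM. The groups at 0.1 and 0.06 nM overlapped through library 4 at 0.1 nM, and all other neighbouring groups were apart. Of the 10 genes, PLD1 had the lowest share of vehicle at 0.03 nM (38.0% ± 2.82), 0.06 nM (13.2% ± 2.61) and 0.1 nM (7.95% ± 2.97), and it stood at 2.66% ± 0.364 at 10 nM. Its log2 fold change was the 31st lowest of all tested genes at 0.03 nM (−1.39 ± 0.16), the 8th at 0.06 nM (−2.90 ± 0.19), the 5th at 0.1 nM (−3.68 ± 0.20) and the 24th at 10 nM (−5.20 ± 0.23). At 10 nM it rested on 25 counts (exact Poisson 95% interval 16.2 to 36.9).

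Of 17 genes of phospholipase D and phosphatidate metabolism 16 were tested, and at 10 nM 6 were lower and 7 higher, with a median of 0.06; with library totals 7 were lower and 6 higher, with a median of −0.15. PLD2, the other classical phospholipase D, had 19.8 ± 1.27 CPM at 10 nM and 22.2 ± 0.477 CPM in vehicle (log2 −0.16 ± 0.071; edgeR adjusted p = 0.0593, called lower with library totals). PLD2 was lower by 0.30 ± 0.072 at 0.06 nM and by 0.36 ± 0.072 at 0.1 nM (edgeR adjusted p = 0.00413 and 0.00059). PLPP1, which dephosphorylates phosphatidic acid, had 704 CPM at 10 nM and 99.0 CPM in vehicle (log2 2.83 ± 0.087; edgeR adjusted p = 1.54e-14). ARF1 and ARF6, small GTPases that activate PLD1, were higher by 0.79 and 0.66.

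BCHE encodes butyrylcholinesterase, a secreted esterase that hydrolyses choline esters, and it was the least responsive of the 10 genes. BCHE had 131, 104 and 143 CPM in vehicle, 116, 83.8 and 112 CPM at 0.03 nM, 86.0, 71.6 and 85.5 CPM at 0.06 nM, 78.9, 56.0 and 70.7 CPM at 0.1 nM and 22.4, 20.2 and 17.7 CPM at 10 nM. Library 3 was the lowest of its group in vehicle and at 0.03, 0.06 and 0.1 nM, and neighbouring groups overlapped up to 0.1 nM, although within each replicate number the level stepped down each time. The share of vehicle was 82.4% ± 13.9, 64.3% ± 6.49, 54.4% ± 9.20 and 15.9% ± 1.86 (SD, n = 3). The log2 fold change was −0.28 ± 0.14 at 0.03 nM, −0.88 ± 0.14 at 0.1 nM and −2.65 ± 0.15 at 10 nM. The value at 0.03 nM was −0.15 without 0.03 nM replicate 3 and −0.18 without vehicle replicate 4.

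In the cholinergic and esterase list 11 of 16 genes were tested, and at 10 nM 6 were lower (ACHE, COLQ, PRIMA1, CHRNA5, CES3 and PON2) and 3 higher (CHRNA2, CHRNB1 and CES2), with a median of −0.18. With library totals the calls of CHRNB1 and CES2 were lost, which left 6 lower and 1 higher, with a median of −0.39. CHRNA5, a nicotinic receptor subunit, was higher by 0.24, 0.52 and 0.53 at 0.03, 0.06 and 0.1 nM (edgeR adjusted p = 0.0421, 1.61e-05 and 6.83e-06), and its lower call at 10 nM (log2 −0.18 ± 0.071) was lost with RLE size factors and with DESeq2. COLQ and PRIMA1, which anchor cholinesterases to matrix and membrane, fell, with log2 changes of −1.66 ± 0.16 and −1.41 ± 0.21. ACHE, acetylcholinesterase, had 0.427 ± 0.0455 CPM at 10 nM and 0.687 ± 0.0780 CPM in vehicle (log2 −0.68 ± 0.25; edgeR adjusted p = 0.0246, lost with DESeq2). CHRNA2, another such subunit, had 124 CPM at 10 nM and 1.03 CPM in vehicle (log2 6.90 ± 0.14; edgeR adjusted p = 1.46e-16).

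AOC1 encodes diamine oxidase, a secreted enzyme that oxidises histamine and putrescine. AOC1 had 5.67, 9.01 and 7.10 CPM in vehicle, 2.64, 3.29 and 2.64 CPM at 0.03 nM, 1.47, 2.14 and 1.31 CPM at 0.06 nM, 0.916, 1.28 and 0.950 CPM at 0.1 nM and 0.501, 0.463 and 0.555 CPM at 10 nM. Library 3 was the highest at vehicle and at the 3 lower doses, and neighbouring groups did not overlap. The share of vehicle was 39.3% ± 5.17 at 0.03 nM and 6.97% ± 0.639 at 10 nM (log2 −1.35 ± 0.18 and −3.85 ± 0.22). The 66 counts at 10 nM have an exact Poisson 95% interval of 51.0 to 84.0.

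Of 16 genes of amine oxidation 12 were tested, and at 10 nM 1 was lower (ALDH2) and 5 were higher (AOC2, MAOA, SAT1, LOX and ODC1), with a median of 0.11. With library totals LOXL1, LOXL2 and SAT2 were also lower, which gave 4 lower and 4 higher and a median of −0.09. ODC1, which makes putrescine, a substrate of AOC1, had 2323 CPM at 10 nM and 357 CPM in vehicle. SAT1, the polyamine acetyltransferase, had 277 CPM at 10 nM and 40.7 CPM in vehicle (log2 2.77 ± 0.074; edgeR adjusted p = 2.46e-15). LOX, lysyl oxidase, was higher by 5.40 ± 0.24. MAOA, monoamine oxidase A, had 1263 ± 39.7 CPM at 10 nM and 681 ± 81.2 CPM in vehicle (log2 0.89 ± 0.074; edgeR adjusted p = 1.10e-08). The related AOC2 was higher by 0.42 ± 0.11 (edgeR adjusted p = 0.00315), a call lost with library totals.

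DIPK2B belongs, with DIPK2A, to a small family of secretory pathway proteins with a protein kinase-like fold. DIPK2B had 5.21, 6.26 and 7.43 CPM in vehicle, 2.92, 3.35 and 4.25 CPM at 0.03 nM, 1.79, 1.88 and 1.83 CPM at 0.06 nM, 1.22, 1.09 and 1.28 CPM at 0.1 nM and 0.158, 0.315 and 0.202 CPM at 10 nM. Neighbouring groups did not overlap, and the 0.06 nM libraries were nearly level with each other. The share of vehicle was 55.7% ± 10.7, 29.1% ± 0.719, 19.0% ± 1.53 and 3.57% ± 1.28 (28.0-fold below at 10 nM), and the log2 fold change at 10 nM was −4.73 ± 0.23 on 31 counts. An antisense gene, AC136489.1, overlaps DIPK2B without sharing exons and had 82 counts at 10 nM and 375 in vehicle.

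Of 13 genes of secretory pathway kinases 10 were tested, and at 10 nM 4 were lower (DIPK1B, FAM20C, GASK1A and GASK1B) and 2 higher (DIPK1A and DIPK2A), with a median of −0.28 that was −0.49 with library totals. DIPK2A, the closest relative of DIPK2B, had 49.6 CPM at 10 nM and 5.20 CPM in vehicle (log2 3.25 ± 0.097; edgeR adjusted p = 1.01e-14). GASK1B had 82.9 CPM at 10 nM and 633 CPM in vehicle (log2 −2.93 ± 0.13), and DIPK1B fell by 0.79.

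**Figure D2:**
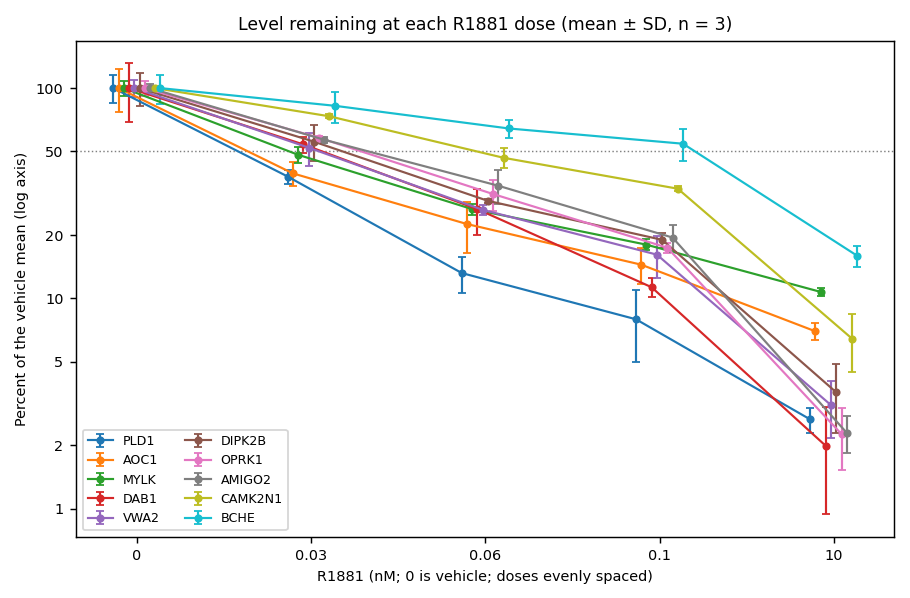
Mean level of each gene as a percent of its vehicle mean (log axis) by R1881 dose, with bars of 1 SD over 3 libraries. PLD1 is the lowest line up to 0.1 nM (7.95%) and BCHE the highest at every dose (15.9% at 10 nM), while MYLK flattens between 0.1 nM (18.0%) and 10 nM (10.7%).

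The genes differed in the dose at which their level passed 50% of the vehicle mean, by linear interpolation on log10 dose. This dose was below 0.03 nM, the lowest tested, for PLD1, AOC1 and MYLK, although within number 2 MYLK passed it at 0.0317 nM. It was 0.0318 nM for VWA2, 0.0332 nM for DAB1, 0.0348 nM for DIPK2B and 0.0370 nM for both OPRK1 and AMIGO2. It was 0.0550 nM for CAMK2N1 and 0.169 nM for BCHE. For each replicate number, levels were set against the mean of all 3 vehicle libraries and not against the vehicle library of that number. Within numbers 2, 3 and 4 the dose was 0.0355, 0.0399 and 0.0365 nM for OPRK1. It was 0.0509, 0.0639 and 0.0532 nM for CAMK2N1, so these 2 genes kept their order in each number. For BCHE it was 0.365, 0.0795 and 0.195 nM, a wide range that still lay above the value of CAMK2N1 in each number. Library 3 was also the lowest for BCHE in vehicle (104 CPM), so this range includes differences between the numbers already present in vehicle. The ranges of VWA2, DAB1, DIPK2B, OPRK1 and AMIGO2 over the numbers overlapped with each other.

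The share of the full 10 nM change, in log2 units, that was present at a low dose separated the genes in another way. At 0.06 nM MYLK had 59.4% of it, AOC1 56.3% and PLD1 55.8%. VWA2 had 38.2%, DIPK2B 37.6%, DAB1 34.8%, OPRK1 30.9%, AMIGO2 28.6%, CAMK2N1 27.9% and BCHE 24.0%. For comparison, the induced gene KLK3 had 74.1% of its rise at 0.06 nM, and the induced gene FKBP5, a cochaperone of steroid receptors, had 34.4%.

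The last step of the series, a 100-fold step in dose from 0.1 to 10 nM, held most of the fall of some genes and little of that of others. At 10 nM against 0.1 nM the log2 change was −3.07 ± 0.21 for AMIGO2, −2.91 ± 0.16 for OPRK1, −2.42 ± 0.40 for DAB1, −2.38 ± 0.22 for VWA2, −2.36 ± 0.14 for CAMK2N1 and −2.33 ± 0.27 for DIPK2B (SE). It was −1.77 ± 0.15 for BCHE, where this step made up 66.8% of the whole change. It was −1.52 ± 0.32 for PLD1, −1.07 ± 0.27 for AOC1 and −0.75 ± 0.09 for MYLK, where it made up 29.2%, 27.8% and 23.3%. At 0.06 against 0.03 nM PLD1 had the largest step of the 10 genes (−1.51 ± 0.20) and BCHE the smallest (−0.36 ± 0.14), and at 0.1 against 0.06 nM DAB1 had the largest (−1.21 ± 0.27).

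**Figure D3:**
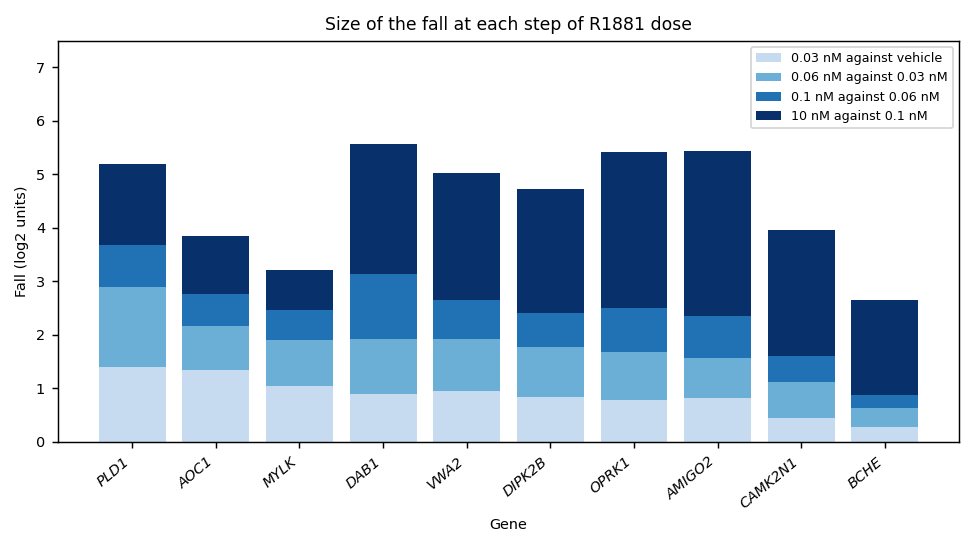
Fall of each gene in log2 units, with the 4 steps of R1881 dose stacked. The step of 10 nM against 0.1 nM is −3.07 in AMIGO2 but −0.75 in MYLK.

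The residual level at 10 nM and the level in vehicle ranked the genes nearly alike. CAMK2N1, BCHE and OPRK1 were the highest and PLD1 the lowest in both, and the order changed only among the genes between. Per kilobase of annotated exon, the mean in vehicle was 162 CPM per kb for CAMK2N1, 40.9 for BCHE, 17.3 for OPRK1, 7.09 for VWA2, 2.58 for AMIGO2, 2.47 for MYLK, 1.90 for AOC1, 1.14 for DAB1, 0.937 for DIPK2B and 0.550 for PLD1. Neighbours from AMIGO2 to DIPK2B in this order overlapped between libraries. At 10 nM the order of these levels was CAMK2N1 at 10.4 ± 3.17 CPM per kb, BCHE at 6.52 ± 0.762, OPRK1 at 0.391 ± 0.127, MYLK at 0.265, VWA2 at 0.220, AOC1 at 0.132, AMIGO2 at 0.0592, DIPK2B at 0.0335, DAB1 at 0.0227 and PLD1 at 0.0146. OPRK1, MYLK and VWA2 overlapped with their neighbours there, as did AMIGO2, DIPK2B, DAB1 and PLD1. The lengths are unions over all annotated isoforms, 22.2 kb for MYLK, so a gene expressed mainly as a short isoform has a value per kilobase that is too low.

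By the root mean square difference of the 4 log2 fold changes, AMIGO2 was the nearest to OPRK1 (0.107), followed among the 10 genes by VWA2 (0.256), DAB1 (0.343) and DIPK2B (0.358). AOC1 (0.886), PLD1 (0.902), CAMK2N1 (0.937), MYLK (1.12) and BCHE (1.72) were further away. Among all other genes with a symbol and at least 1 CPM in vehicle, the 8 nearest were LINC01326 (0.176), LHX9 (0.268), ABCA1 (0.276), CCDC83 (0.296), PCED1B (0.318), MYOZ1 (0.322), SALL4 (0.346) and PLA2G2F (0.374). These were chosen for their likeness over the same 4 comparisons, which share the vehicle libraries. LINC01326, a long non-coding RNA, had 0.0970 ± 0.0163 CPM at 10 nM and 3.62 ± 0.818 CPM in vehicle, with log2 changes of −0.73, −1.65, −2.31 and −5.15. Of the others, PCED1B is the opposite-strand neighbour of AMIGO2 described above, and LHX9, MYOZ1, SALL4 and PLA2G2F had only 4 to 6 counts over the 10 nM libraries.

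Falls of this size were not limited to the 10 genes. The 6 other genes with the lowest log2 change at 10 nM among those with at least 5 CPM in vehicle were ABCA1, MAN1A1, PCDH11X, SI, IL1RN and MATN2. ABCA1, the cholesterol exporter, had 0.167 ± 0.0992 CPM at 10 nM and 7.90 ± 2.43 CPM in vehicle (log2 −5.48 ± 0.48). SI, the intestinal sucrase-isomaltase, had 1.64 ± 0.126 CPM at 10 nM and 38.1 ± 5.87 CPM in vehicle (log2 −4.54 ± 0.17). IL1RN, the interleukin-1 receptor antagonist, had 1.74 ± 0.523 CPM at 10 nM and 38.2 ± 2.09 CPM in vehicle (log2 −4.43 ± 0.15). MAN1A1, a Golgi mannosidase, had 0.661 CPM at 10 nM and 17.1 CPM in vehicle (log2 −4.68 ± 0.21). BCHE, at −2.65, was the member with the smallest change. It was the 260th lowest of all 18403 tested genes, and 250 genes outside the 10 were at least as low. Of 11120 genes with at least 5 CPM in vehicle, 52 others changed at least as far downward, and the next beyond it was SERPINI1 at −2.63.

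**Figure D4:**
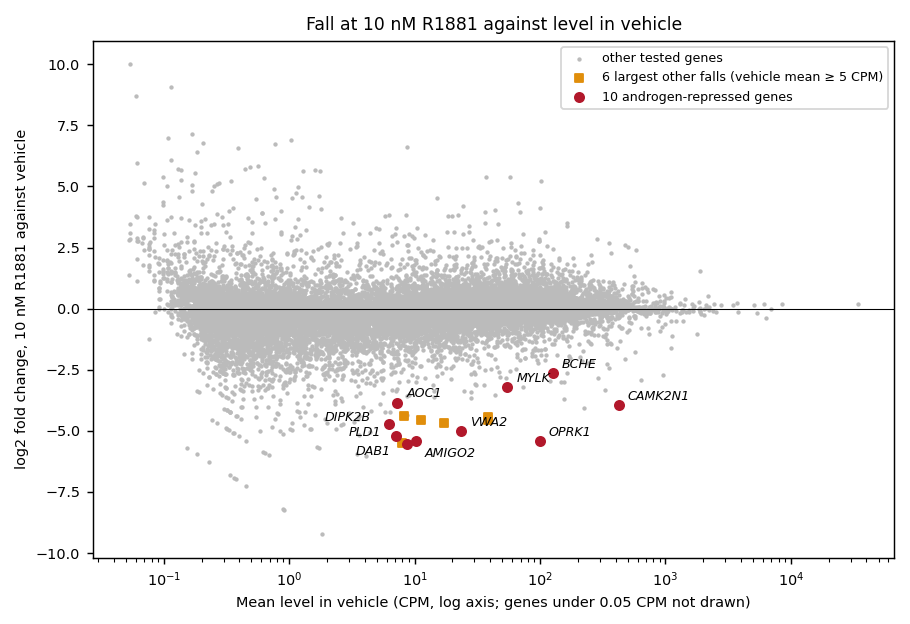
Log2 fold change at 10 nM R1881 against vehicle plotted against the mean level in vehicle (CPM, log axis) for all tested genes in grey, the 10 genes in red and the 6 largest other falls in orange. The 10 genes lie at −2.65 (BCHE) to −5.55 (DAB1), below nearly all genes of like level, with ABCA1 beside DAB1.

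Over all 18403 tested genes, edgeR called 581 lower (3.16%) and 1007 higher (5.47%) at 0.03 nM against vehicle, 2633 lower (14.3%) and 3114 higher (16.9%) at 0.06 nM, 3787 lower (20.6%) and 3958 higher (21.5%) at 0.1 nM and 5209 lower (28.3%) and 5399 higher (29.3%) at 10 nM, at an adjusted p under 0.05. With the replicate number as a block, the calls at 0.03 nM were 1367 lower and 1828 higher. The lower calls at 0.03 nM numbered 298 without vehicle replicate 4, 377 without 0.03 nM replicate 3 and 342 without 0.03 nM replicate 4. With library totals in place of TMM factors the median of all genes at 10 nM shifted to −0.22, and 72.2% of calls were lower, against 49.1% in the TMM fit.

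The lists of pathways and families, 10 lists with 158 genes of which 118 were tested, held changes in both directions. At 0.03 nM 7 of these were lower (5.93%) and 9 higher (7.63%), beside 3.16% and 5.47% of all tested genes. At 0.06 nM these were 28 (23.7%) and 29 (24.6%), beside 14.3% and 16.9%. At 0.1 nM they were 33 (28.0%) and 35 (29.7%), beside 20.6% and 21.5%. At 10 nM 47 were lower (39.8%) and 42 higher (35.6%), beside 28.3% and 29.3%, with a median log2 change of −0.07. With library totals the counts at 10 nM were 57 and 28, with a median of −0.28. In 5 of them, APP, RALA, CHRNA5, CAMKK1 and DGKA, the call at 10 nM was opposite in direction to a call at a lower dose. The lower calls of CHRNA5 and CAMKK1 at 10 nM were lost with RLE size factors and with DESeq2. With a further list of other androgen-repressed genes there were 170 genes in 11 lists, of which 129 were tested. At 0.03 nM 9 of these were lower (6.98%) and 10 higher (7.75%), which were 21 and 19 in a fit blocked on the replicate number. The 9 lower genes became 5 without vehicle replicate 2, 4 without vehicle replicate 4 and 5 without 0.03 nM replicate 4. At 0.06 nM 33 were lower (25.6%) and 31 higher (24.0%), with 21 lower without 0.06 nM replicate 2. At 0.1 nM 41 were lower (31.8%) and 37 higher (28.7%). At 10 nM 55 were lower (42.6%) and 43 higher (33.3%), beside 28.3% and 29.3% of all tested genes, and the median log2 change was −0.12. These counts include the further list, whose genes were chosen as repressed and of which 8 of 11 tested were lower. With library totals the 11 lists held 65 lower and 29 higher, with a median of −0.33.

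The list named other androgen-repressed genes, 11 of 12 tested, was chosen with results of these data known, and not all of its genes fell. At 10 nM 8 were lower, among them UGT2B15, UGT2B17, AKR1C3, ACKR3, MET, NR3C1 and FOLH1, and 1 was higher (SNAI2), with a median of −2.34. ACKR3, an atypical chemokine receptor, had 18.3 CPM at 10 nM and 147 CPM in vehicle (log2 −3.01 ± 0.053; edgeR adjusted p = 1.55e-17). FOLH1, which encodes prostate-specific membrane antigen, was lower by 1.05 ± 0.08. SNAI2, a transcription factor of epithelial-mesenchymal transition, went against the name of the list, with 24.3 CPM at 10 nM and 0.166 CPM in vehicle (log2 7.15 ± 0.20). HSD17B6 was also called higher at 0.06 and 0.1 nM (edgeR adjusted p = 0.0183 and 0.00457) and was not called at 10 nM. UGT2B15 and UGT2B17, which inactivate androgens by glucuronidation, are near-identical copies, and how reads were shared between them is not given, so their values are uncertain.

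**Figure D5:**
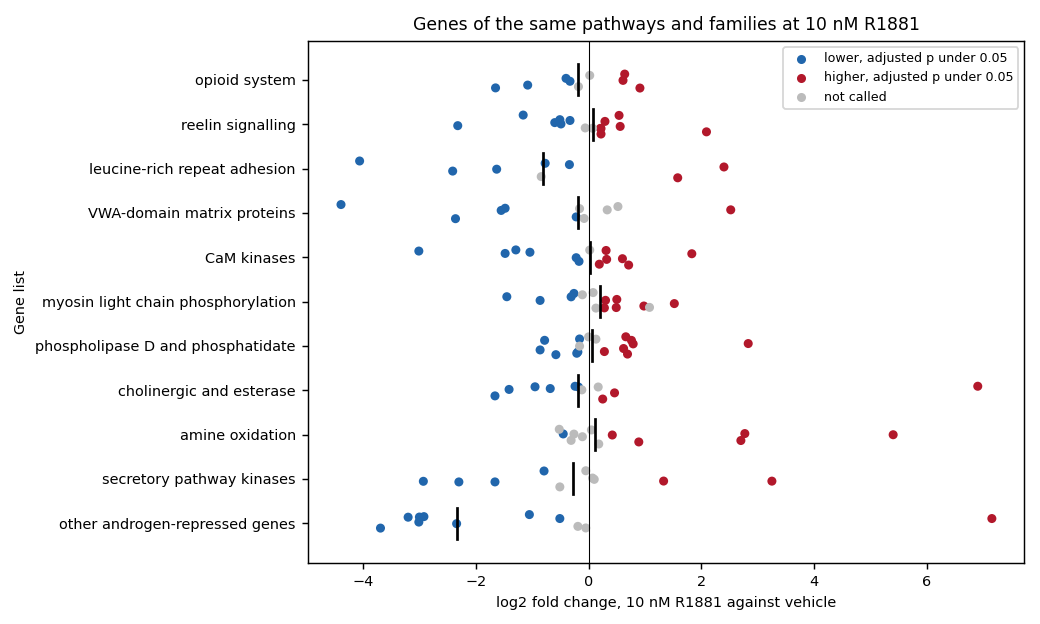
Log2 fold change at 10 nM R1881 against vehicle for the tested genes of each of the 11 lists, in blue where lower, red where higher and grey where the adjusted p is not under 0.05, with a short black line at the median of each list. Most lists spread to both sides of 0, from MATN2 at −4.39 to CHRNA2 at 6.90, and the list of other androgen-repressed genes lies mostly to the left, apart from SNAI2 at 7.15.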

How the data were processed

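For 15 LNCaP libraries the authors deposited raw counts, whole numbers per Ensembl gene. The submitters' processing notes name GRCh38/hg38 and the tools STAR 2.7.8a, Trimmomatic 0.39 and DESeq2 1.36.0; libraries were KAPA Stranded mRNA, per the labels' protocols. The counter, annotation release and strand setting are not given in the sources used here. The 15 columns of the VCaP table match no label and were not used.

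Groups came from the labels, and columns were matched by name. A symbol table matched 37732 of 37843 IDs once versions were dropped. CPM are counts over library totals times TMM factors (0.883 to 0.912 at 10 nM, 1.02 to 1.06 in vehicle). edgeR 4.0.16 (R 4.3.3) fitted all 15 libraries with 1 mean per group after filterByExpr (18403 genes), with two-sided quasi-likelihood tests and Benjamini-Hochberg adjusted p under 0.05. SEs of log2 fold changes (prior count 0.125) are the fold change over the square root of F. The fit was checked on simulated counts. Poisson intervals (95%) cover counting error only; reads carried no molecular identifiers and are not independent molecules. Deviations of same-numbered libraries from their group means correlated at 0.128 to 0.438 (other numbers at most 0.146), so libraries of the same number appear paired. The labels give no reason for the pairing. The main fit had no replicate term, so its p-values and SEs leave this pairing out, and the replicate block was run only as an alternative.

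The 10 genes, the lists and the comparisons were chosen with earlier results of these data known. Named beside the 10 genes were the 8 nearest to OPRK1 (at least 1 CPM in vehicle), the 6 largest other falls (at least 5 CPM), up to 3 called genes per list with the smallest p at 10 nM, and KLK3 and FKBP5 (a few genes under this rule are not reported here); other list members were named after their values were seen. Alternatives were RLE size factors, library totals, DESeq2 1.42.0, no filter, a stricter filter (a mean count of 20, and 1 CPM in 3 libraries), the replicate block, only the libraries compared, a prior count of 2, leaving out each library, and leaving out the libraries numbered 3.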

Additional observations from a re-analysis of the deposited data

How the results depend on the processing

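The log2 changes of the 10 genes at the 4 doses were recomputed under 9 alternatives beside leaving out single libraries (360 values) and kept their direction; 357 moved by less than the spread between replicates. The exceptions were CAMK2N1 at 0.1 nM (−1.65) and MYLK at 10 nM (−3.43) with library totals without TMM factors, and PLD1 at 10 nM (−4.90) with a prior count of 2. The largest move without the libraries numbered 3 was DIPK2B at 10 nM (−5.11). All 600 values with 1 library left out moved by less than that spread. This outcome was largely fixed in advance, since dropping 1 of 3 libraries moves a group mean by only part of their spread. Many of these omissions also left both compared groups whole. The largest move was that of DAB1 at 10 nM, to −6.05 without 10 nM replicate 3. With 1 library left out, the medians of the 10 genes ran from −0.96 to −0.81, −1.90 to −1.73, −2.56 to −2.45 and −5.03 to −4.77 at 0.03, 0.06, 0.1 and 10 nM. With library totals the median at 10 nM was −5.09 and the genes called at 10 nM were 7984 lower and 3073 higher. At 0.03 nM the calls were 1367 lower and 1828 higher with the replicate block (partner genes 21 and 19), and 379 lower and 631 higher with only the libraries compared. With 1 library left out they were 298 to 645 lower and 681 to 1112 higher (partner genes 4 to 11 and 7 to 10); the fewest were without vehicle replicate 4, and 0.03 nM replicates 3 and 4 also brought the lower calls to 377 and 342. At 0.06, 0.1 and 10 nM the lower calls ran over 1897 to 2705, 3181 to 3853 and 4780 to 5341, and the higher calls over 2596 to 3198, 3582 to 4080 and 4796 to 5470. Partner genes ran over 21 to 34, 35 to 45 and 51 to 57 lower and 26 to 32, 34 to 39 and 41 to 46 higher. Of the 48 genes named by rule, 0 changed direction or side of the threshold at 10 nM in any of these alternatives that gave the gene a value. A gene removed by the stricter filter has no call there, so that alternative could not change it. The alternatives planned for VCaP were not run, since its columns match no label. The cause of the moves was not tested. Depth limits DAB1, PLD1, AMIGO2 and DIPK2B at 10 nM, which rest on 24 to 31 counts over 3 libraries.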
